A study of Homo sapiens with 12 samples.

Results

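The genes described here are 49 autophagy and lysosome genes, chosen by name and found by gene symbol among the 62475 gene identifiers of the counts table, where all 49 were present. They comprise 4 genes of the lysosomal membrane, 8 peptidases, 9 glycosidases, lipid enzymes and their activators, 5 genes of the proton pump, the transcription factors TFEB and TFE3, 2 cargo receptors, 4 genes of the ATG8 family and 15 other genes of the autophagy core. The cells were HepG2, a human liver cancer line, and 4 groups of 3 biological replicates were sequenced from total RNA. The groups were cells with the HDAC1_S434A mutant treated with H89, HDAC1_S434A cells without H89, cells with wild-type HDAC1 treated with H89, and wild-type cells without H89, called below S434A with and without H89 and WT with and without H89. HDAC1 is a histone deacetylase, S434A replaces one of its serines by alanine, and H89 inhibits protein kinase A (PKA), the kinase that cAMP activates. The way the mutant cells were made, the number of clones, and the dose and time of H89 were not stated in the sources used here.

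Lysosomes are acidic compartments in which hydrolases break down proteins, glycans and lipids. A proton pump, the V-ATPase, keeps them acidic. Autophagy carries cytoplasm to them: a kinase complex around ULK1 and a lipid kinase complex around BECN1 start a double membrane, ATG9A and WIPI proteins help it grow, conjugation enzymes attach ATG8 proteins to it, and receptors such as SQSTM1 link cargo to ATG8 proteins. TFEB and its relative TFE3 enter the nucleus when MTORC1 is low and bind short E-box elements in the promoters of many lysosomal genes. In liver cells autophagy also turns over glycogen and lipid droplets, and cAMP and PKA are part of the fasting signal.

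Total counts per library ran from 17562754 to 37187794. The spread between replicates, as a biological coefficient of variation, was 0.0556 in S434A with H89, 0.351 in S434A without H89, 0.0775 in WT with H89 and 0.0197 in WT without H89. The first S434A library without H89 stood apart from the other S434A libraries of its group, and values without it are given for some of the genes. Mitochondrially encoded mRNAs made up 5.57 to 5.94% of counts in S434A with H89, 3.16 to 7.02% in S434A without H89, 4.91 to 6.26% in WT with H89 and 1.48 to 1.51% in WT without H89. Ribosomal protein genes made up 7.93 to 7.94%, 9.51 to 11.5%, 7.37 to 7.77% and 19.4 to 19.98% of counts in those groups, in the same order. Markers of hepatocytes and HepG2 cells were present and differed between groups in both directions. In the same order of groups, ALB had 17910 to 20060, 2923 to 23150, 16750 to 21030 and 36750 to 37290 CPM. HNF4A had 312 to 348, 232 to 358, 305 to 340 and 148 to 155 CPM. The 11 markers summed to 44460 to 45490, 33630 to 54610, 44020 to 48750 and 73020 to 73570 CPM. In S434A against WT without H89, 5 of the 11 were higher and 5 lower. The fibroblast markers COL1A2 and DCN, the blood marker PTPRC and the macrophage marker CD163 were at 0 in all 12 libraries, CD68 was at most 0.0538 CPM, and LYZ, a lysozyme gene that is also in the macrophage list, had 1847 to 4454 CPM. Other markers of those cells were present: the fibroblast marker PDGFRB at 17.7 to 39.6 CPM, the monocyte marker CD14 at 11.9 to 35.6 CPM and the endothelial markers VWF and CDH5 at 1.49 to 6.70 and 0.987 to 2.88 CPM. PDGFRB, CD14 and VWF were higher in S434A than in WT without H89, at 0.87, 0.84 and 1.47 (log2), and with H89 in S434A they gave -0.80, -1.21 and -1.17; the part of this in the results was not tested. The 7 fibroblast markers, 2 of them at 0, summed to 17.8 to 20.5 CPM in S434A with H89, 24.4 to 39.7 CPM in S434A without H89, 19.8 to 21.03 CPM in WT with H89 and 17.98 to 18.7 CPM in WT without H89. The 7 endothelial and blood markers, 1 of them at 0, and the 6 macrophage markers, 2 of them at 0, shared LYZ, which made up nearly all of both sums. Counts per gene do not show the S434A substitution itself, and in bulk RNA fewer cells of a type and less RNA per cell cannot be told apart.

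Of the 49 genes, 47 had enough counts to be tested. CTSZ, a cathepsin, had 4 to 11 counts per library, and ULK2, a kinase related to ULK1, had 0 to 5 counts, so neither was tested in the fit of all 12 libraries. CLN3, a membrane protein of lysosomes, was tested with only 2 to 15 counts per library and was called in no comparison. The 49 genes together took 0.692 to 0.709% of all counts in S434A with H89, 0.663 to 0.797% in S434A without H89, 0.684 to 0.730% in WT with H89 and 0.535 to 0.538% in WT without H89. In CPM scaled between libraries by TMM factors, a scaling that equalises the typical gene, their sum was 6453 ± 144 CPM in S434A cells with H89, 7187 ± 822 CPM in S434A cells without it, 6612 ± 147 CPM in WT cells with H89 and 6408 ± 36.1 CPM in WT cells without it (SD, n = 3). Per kilobase of exon, the highest levels over the groups belonged to PSAP, the precursor of the saposins that activate sphingolipid hydrolases, with a mean of 284 CPM per kb, and CTSB, cathepsin B, with 185 CPM per kb. GRN, CTSL, CTSD and LAMP1 followed with 79.0, 57.4, 51.9 and 45.6 CPM per kb. At the low end MCOLN1 had 1.53, GABARAP 1.26, CTSZ 0.188, CLN3 0.0442 and ULK2 0.00658 CPM per kb.

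Without H89, S434A cells differed from WT cells in 36 of the 47 genes tested, at an adjusted p under 0.05 and any fold. Of these 19 were higher in S434A, which is 40.4% of the genes tested here beside 29.0% of all 14435 genes tested. The other 17 were lower, 36.2% beside 29.3% of all genes. At the study's threshold, which also asks for a change over 2-fold, 7 were higher (14.9% beside 11.6% of all genes) and 2 were lower (4.26% beside 11.3%). The 7 were TPP1, GRN, GAA, ULK1, ATG9A, ATP6AP1 and CTSA, and the 2 were ATG5 and ATG12. The median log2 fold change was 0.03 over these genes and -0.04 over all genes tested. Without S434A replicate 3, 11 genes were over 2-fold higher. Fitted and scaled on only these 2 groups, the values were shifted upwards: ATG3, ATG5, ASAH1, ATG14, BECN1, WIPI1 and ATP6V1H lost their call as lower, MAP1LC3B and ATG16L1 passed as higher, and 12 genes were over 2-fold higher. Sizes of change are given below as log2 fold changes ± SE, with n = 3 libraries per group. SE and p-values use 1 spread per gene shared by all 12 libraries, so they do not measure the spread of the 2 groups compared. Fitted on only these 2 groups, TPP1 had an adjusted p of 0.00118 in place of 4.7e-06. For H89 in WT the same kind of fit gave LAMP1 a smaller one, 7.95e-10 in place of 9.24e-05.

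H89 changed 36 of the 47 genes in WT cells. It raised 21 (44.7% beside 38.8% of all genes) and lowered 15 (31.9% beside 30.9%). Over 2-fold, 7 were higher (14.9% beside 22.2% of all genes) and 2 were lower (4.26% beside 15.8%). The 7 were ULK1, GRN, TPP1, ATP6V1A, ATG9A, ATP6AP1 and CTSA, and the 2 were GABARAP and CTSH. Over 2-fold lower was 6, 4 and 5 genes without WT with H89 replicates 1, 2 and 3. The median log2 fold change was 0.23 here and 0.20 over all genes. With the size factors of DESeq2 (RLE) the median of all genes was 0.05, so that directions of genes near 0 in this comparison depend on the scaling. TFEB, PSAP, NBR1, ASAH1 and ATG4B, raised by H89 in WT here, did not pass with those factors.

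In S434A cells H89 raised 12 of the 47 genes (25.5% beside 29.3% of all genes) and lowered 13 (27.7% beside 22.7%). Over 2-fold, ASAH1, ATG5 and ATP6V1A were higher (6.38% beside 15.2% of all genes) and GABARAP was lower (2.13% beside 2.35%). The median log2 fold change was -0.09 here and 0.01 over all genes. Without the first S434A library the counts were 13 higher and 11 lower, with 1 over 2-fold higher and 0 over 2-fold lower. Without S434A with H89 replicate 2, 5 were higher and 1 was over 2-fold higher, and without S434A replicate 3, 22 were lower. Fitted on the S434A libraries alone, 5 were higher and 6 were lower, and 14 of the 25 calls were lost. Those of ATG5 and ATP6V1A were among them (adjusted p = 0.0997 and 0.0535). The others lost were GAA, GUSB, PSAP, SMPD1, LIPA, CTSD, NBR1, ATP6V1B2, GABARAPL1, BECN1, WIPI1 and ATG12. The first S434A library also set the size of smaller values. Without it H89 in S434A gave -0.22 for PSAP and -0.37 for GAA, against -0.35 and -0.58 with it, and NEU1 and CTSA passed at 0.36 and 0.37.

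With H89, S434A and WT cells did not differ in any of the 47 genes at an adjusted p under 0.05. The share of all genes called was 0.0% in each direction, at any fold and over 2-fold. At an unadjusted p under 0.05 the quasi-likelihood test of edgeR gave 589 of the 14435 genes, and 1 of the genes described here, CTSH, at 0.14 ± 0.04 (log2 fold change ± SE). DESeq2 called 2 genes of all at an adjusted p under 0.05, and none of the genes described here. Log2 fold changes lay between -0.25 for TFE3 and 0.14 for CTSH, except for 2 genes with wide errors, CLN3 at -0.61 ± 0.55 and RB1CC1 at 0.18 ± 0.64. A missed threshold does not show that the levels were equal. The comparisons share groups: WT without H89 is the baseline of both S434A without H89 and WT with H89. Each is therefore given by its own values.

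**Figure D1:**
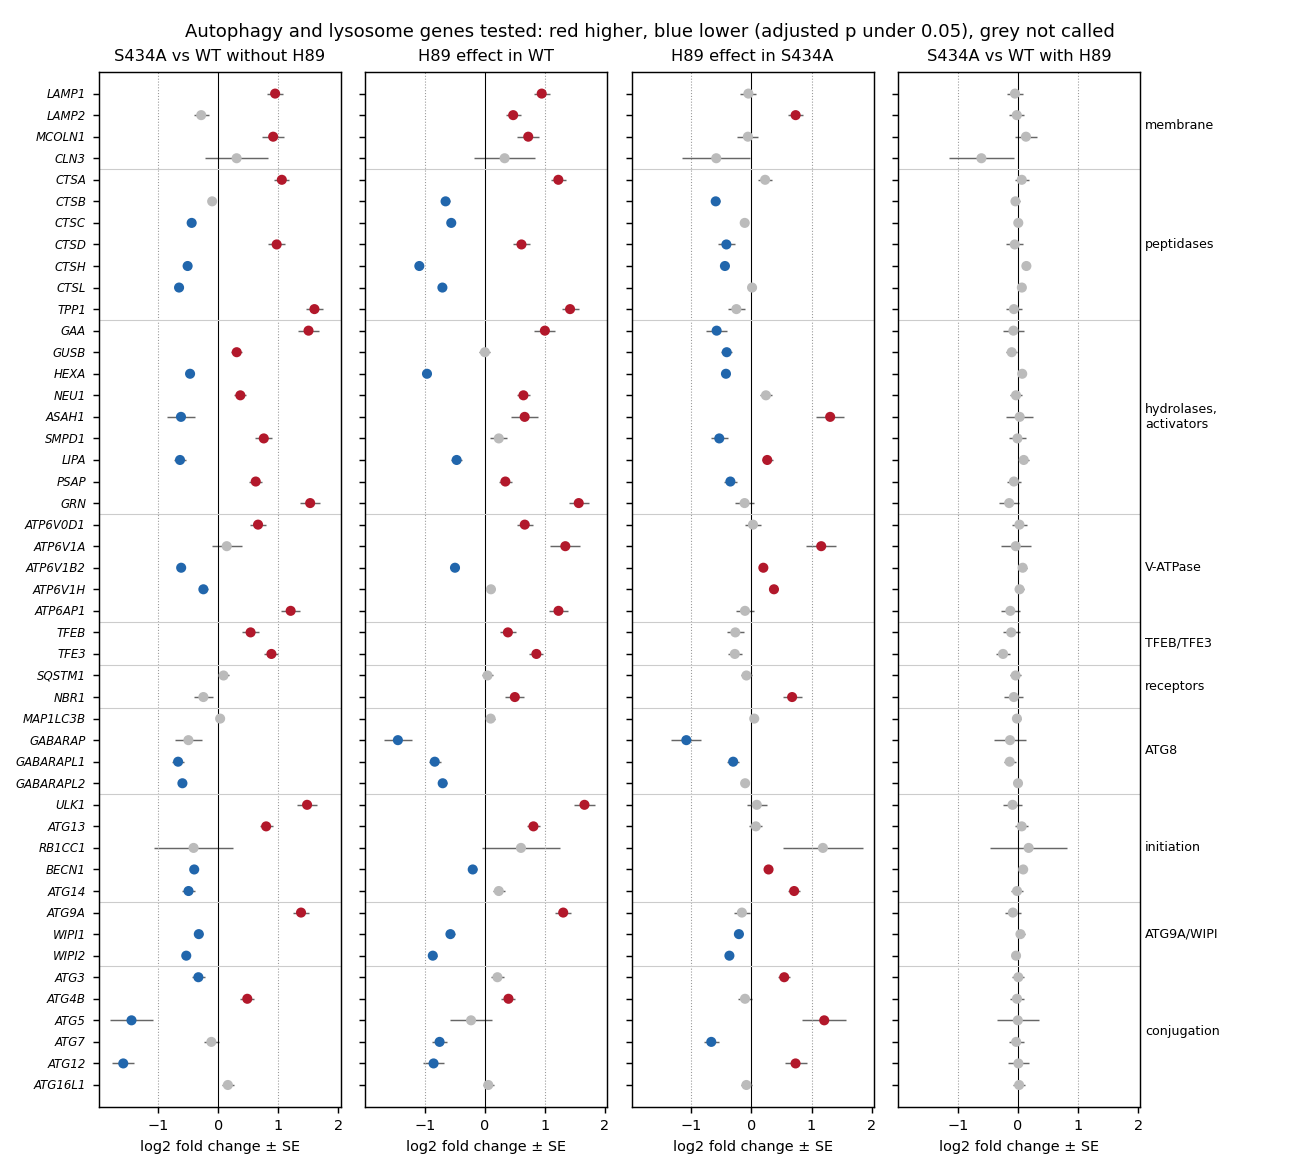
Log2 fold changes of the 47 genes tested (rows, by class) in 4 comparisons (columns), each of 3 against 3 libraries. Standard errors are those of the fit of all 12 libraries. Red is higher, blue lower and grey not called at an adjusted p under 0.05, and dotted lines mark 2-fold. TPP1, GRN, GAA, ULK1, ATG9A, ATP6AP1 and CTSA lie right of the 2-fold line in S434A without H89, ATG5 and ATG12 left of it, and every gene is grey in the last column.

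Fold changes moved with GC content in most comparisons and, over all genes tested, with exon length. The 19 genes higher in S434A without H89 had a median GC content of 58.2% (50.7 to 64.6%), and the 17 lower ones 44.3% (38.9 to 54.5%). In S434A cells the 12 genes that H89 raised had a median GC content of 42.4% (38.9 to 47.5%) and the 13 that it lowered 54.5% (48.9 to 64.6%). In WT cells the medians were 57.6% for the 21 raised and 49.5% for the 15 lowered genes. Over all genes with a GC value, Spearman's rho across genes between log2 fold change and GC content was 0.46 for S434A without H89 (against WT), -0.68 for H89 in S434A cells, -0.08 for H89 in WT cells and -0.17 for S434A against WT with H89; genes are not independent replicates. With exon length, rho was 0.25, 0.37, 0.46 and -0.11 in that order. The genes described here did not all follow it. In S434A without H89 median exon length was 4871 bases for the higher and 5892 for the lower genes. With H89 in WT it was 5648 for the raised and 6413 for the lowered genes, and with H89 in S434A 6261.5 and 4053. When a smooth trend on GC content and exon length was taken out of each library before the test, 23 of the 36 calls of S434A against WT without H89 kept direction and threshold, 6 lost the call and 7 turned round. Of the 36 calls for H89 in WT, 29 kept, 2 lost and 5 turned, and of the 25 for H89 in S434A, 9 kept, 9 lost and 7 turned. After the removal 5, 3 and 11 further genes passed in those comparisons. The 11 for H89 in S434A were ATG4B, ATG9A, ATP6AP1, ATP6V0D1, CTSA, CTSL, GRN, NEU1 and ULK1, all higher, at 0.15 to 0.50, and CTSC and GABARAPL2, lower, at -1.77 and -0.41. Values after this removal are called trend-removed below, and what part GC content and length have in the differences was not tested further. Trend-removed values include the first S434A library, and some depend on it. With that library also left out, 28 of the 36 calls of S434A against WT without H89 kept, 5 lost and 3 turned. For H89 in S434A 9 of the 25 kept, 10 lost and 6 turned.

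**Figure D2:**
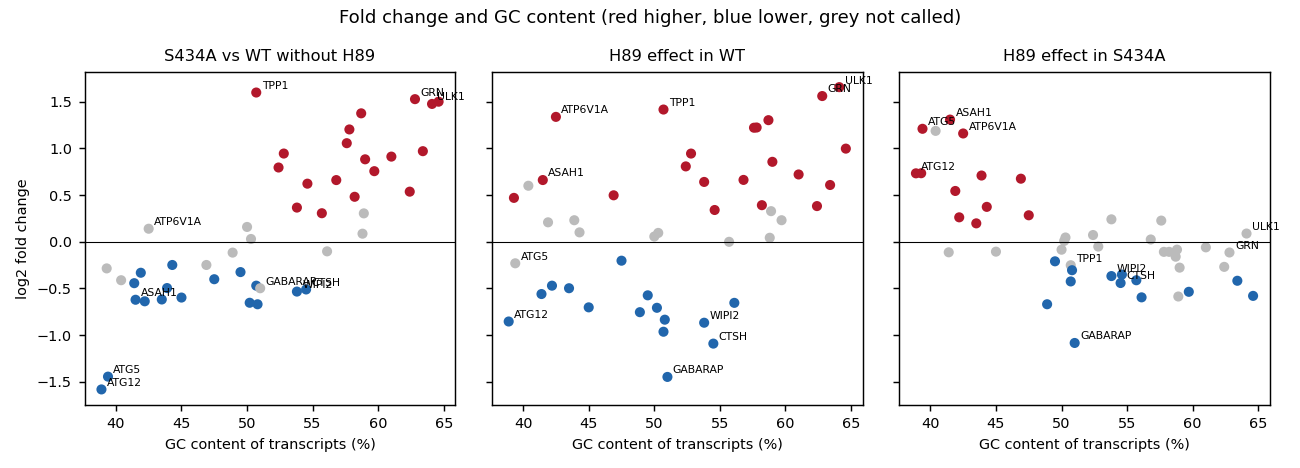
GC content of each gene's transcripts (horizontal axis, %) against its log2 fold change (vertical axis) in 3 comparisons, 1 point per gene tested, red for higher, blue for lower and grey for not called. In S434A against WT without H89 the red points lie at 50.7% GC and above and the blue points at 54.5% and below, and under H89 in S434A the red points lie at 47.5% and below.

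Promoters of 40 of the 49 genes were matched in a RefSeq table (GRCh38.p14) that gives 250 bases before and 50 after each gene's start. LAMP2, CTSB, HEXA, ASAH1, PSAP, ATP6V1A, ATP6V1B2, ATP6V1H and RB1CC1 were not matched. The letters CACGTG, the core of the E-box, were in 10 of the 40 (25.0%), and in 2548 of all 35116 promoters (7.26%). The longer TCACGTGA, which contains CACGTG and is the centre of the element that TFEB and TFE3 bind, was in 7 of the 40 (17.5%) and in 344 of all promoters (0.98%). Both read the same on either strand. The 40 were taken at 1 entry per gene. The 35116 were not, nor were they limited to the genes tested, so the shares are of unlike sets. The stretches of the 7 are printed because they hold the letters of the TFEB element, which are in capitals, 5′ to 3′ on the strand of the gene. They are LAMP1 (chr13:113297164-113297263, plus strand), MCOLN1 (chr19:7522536-7522635, plus strand), CLN3 (chr16:28492025-28492122, minus strand), CTSA (chr20:45891263-45891362, plus strand), GAA (chr17:80101503-80101602, plus strand), ATP6V0D1 (chr16:67481164-67481263, minus strand) and ATG3 (chr3:112561913-112562004, minus strand).
LAMP1: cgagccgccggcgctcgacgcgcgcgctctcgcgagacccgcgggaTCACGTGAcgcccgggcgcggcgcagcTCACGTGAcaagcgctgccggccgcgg
MCOLN1: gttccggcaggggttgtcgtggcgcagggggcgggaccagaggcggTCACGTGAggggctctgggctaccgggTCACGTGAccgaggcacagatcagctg
CLN3: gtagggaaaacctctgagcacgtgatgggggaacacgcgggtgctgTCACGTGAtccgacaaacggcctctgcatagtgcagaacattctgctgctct
CTSA: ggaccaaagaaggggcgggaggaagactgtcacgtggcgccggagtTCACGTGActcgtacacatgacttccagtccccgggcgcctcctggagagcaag
GAA: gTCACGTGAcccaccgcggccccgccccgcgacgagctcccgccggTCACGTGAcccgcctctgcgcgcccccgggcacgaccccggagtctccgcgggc
ATP6V0D1: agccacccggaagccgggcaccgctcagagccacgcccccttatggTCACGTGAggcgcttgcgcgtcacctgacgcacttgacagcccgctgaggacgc
ATG3: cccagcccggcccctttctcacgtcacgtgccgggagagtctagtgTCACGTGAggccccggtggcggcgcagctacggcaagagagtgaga
LAMP1, MCOLN1 and GAA hold the 8 letters at 2 places each. Of these 7 genes, all tested, 5 were higher and 1 was lower in S434A without H89 than in WT without H89, and H89 in WT raised 5 and lowered 0. Of the 31 tested genes with a matched promoter and no TCACGTGA, S434A cells without H89 had 13 higher and 12 lower, and H89 in WT raised 12 and lowered 12. Over all genes tested 29.0% passed as higher and 29.3% as lower in the S434A against WT comparison, and 38.8% and 30.9% for H89 in WT. Of the 7, H89 in S434A raised 1 and lowered 1, and of the 31 it raised 6 and lowered 9. The shares of all genes tested in that comparison were 29.3% raised and 22.7% lowered. With the trend on GC content and length removed, ATP6V0D1 and ATG3, 2 of the 6 calls among the 7 in S434A without H89, turned round and did not pass. In the same fit ATP6V0D1 gave 0.09 for H89 in WT and did not pass. LAMP1, MCOLN1, CTSA, GAA and ATP6V0D1, the 5 higher in S434A without H89, had 52.8 to 64.6% GC. ATG3, the lower one, had 41.9%. Whether the element has a part in these changes was not tested. TPP1, GRN, ULK1, ATG9A and ATP6AP1, which changed over 2-fold in both comparisons, have neither CACGTG nor TCACGTGA in this window, which says nothing of other stretches. The cAMP response element TGACGTCA, searched in addition because H89 inhibits PKA, was in 649 of all promoters (1.85%) and among the 40 only in that of GABARAPL1.

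TFEB and TFE3 themselves were higher in S434A cells without H89 and in WT cells with H89 than in WT cells without H89. TFEB had 19.5, 17.7 and 18.3 CPM in S434A cells with H89, and 27.0, 21.5 and 18.5 CPM in S434A cells without it. In WT cells TFEB had 20.5, 21.4 and 18.3 CPM with H89 and 17.1, 13.9 and 15.1 CPM without it. The WT libraries without H89 were the lowest of all 12 and overlapped no other group. The log2 fold change was 0.54 ± 0.14, adjusted p = 0.00638, in S434A against WT without H89 and 0.38 ± 0.14, adjusted p = 0.0292, for H89 in WT. Trend-removed, these were -0.22 and -0.12, the reverse direction. The first passed as lower, adjusted p = 0.0274, and the second did not pass. TFEB has a GC content of 62.4%. With RLE factors, H89 in WT gave 0.23 for TFEB and did not pass (adjusted p = 0.141). TFE3 had 73.0, 73.4 and 68.3 CPM in S434A cells with H89, and 102, 89.5 and 68.8 CPM in S434A cells without it. In WT cells TFE3 had 90.3, 82.9 and 82.1 CPM with H89 and 47.1, 46.7 and 47.2 CPM without it. TFE3 was again lowest in WT without H89, with no overlap with any other group. Its log2 fold change was 0.88 ± 0.12, adjusted p = 7.2e-05, in S434A against WT without H89, and 0.86 ± 0.12, adjusted p = 6.24e-05, for H89 in WT, and trend-removed 0.45 and 0.74, both past the threshold. In S434A cells H89 gave -0.28 ± 0.12 for TFE3 and -0.27 ± 0.14 for TFEB, neither past the threshold. Per kilobase TFE3 was the more abundant of the pair in every group, with 11.2 CPM per kb against 2.72 for TFEB in WT without H89.

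Of the 4 genes of the lysosomal membrane, LAMP1 and MCOLN1 rose in S434A without H89, and both rose with H89 in WT together with LAMP2. LAMP1 (hg19 chromosome 13, 113951554 to 113977987) is an abundant glycoprotein that lines the lysosome. LAMP1 had 296, 287 and 286 CPM in S434A cells with H89, and 366, 310.0 and 226 CPM in S434A cells without it. In WT cells LAMP1 had 315, 309 and 278 CPM with H89 and 156, 158 and 154 CPM without it. The 9 libraries of the other groups were all above the WT libraries without H89. The log2 fold change was 0.95 ± 0.14, adjusted p = 0.000127, in S434A against WT without H89, 0.95 ± 0.14, adjusted p = 9.24e-05, for H89 in WT and -0.05 ± 0.13 for H89 in S434A. MCOLN1 encodes the calcium channel of lysosomes. MCOLN1 had 6.75, 6.27 and 7.66 CPM in S434A cells with H89, and 9.31, 6.92 and 5.35 CPM in S434A cells without it. In WT cells MCOLN1 had 6.67, 5.95 and 6.27 CPM with H89 and 3.69, 3.68 and 4.07 CPM without it. It too was lowest in every WT library without H89, with log2 fold changes of 0.91 ± 0.18, adjusted p = 0.00119, in S434A without H89 and 0.72 ± 0.18, adjusted p = 0.00422, for H89 in WT. Trend-removed the S434A value was 0.40. It was 0.30 and did not pass, adjusted p = 0.0514, when the first S434A library was left out as well. LAMP2, a relative of LAMP1 that also serves chaperone-mediated autophagy, had another pattern. LAMP2 had 183, 213 and 194 CPM in S434A cells with H89, and 91.8, 124 and 138 CPM in S434A cells without it. In WT cells LAMP2 had 197, 189 and 213 CPM with H89 and 145, 140.0 and 147 CPM without it. It was highest in both H89 groups and lowest in S434A without H89, where all 3 libraries were below those of WT. H89 raised it in S434A cells by 0.73 ± 0.13, adjusted p = 0.00123, and in WT cells by 0.47 ± 0.13, adjusted p = 0.00606, while S434A against WT without H89 was -0.29 ± 0.13 and did not pass (adjusted p = 0.0719). Trend-removed both H89 values turned round, to -0.98 in S434A and -0.37 in WT. The first passed as lower, adjusted p = 0.0394, and the second did not pass. LAMP2 has a GC content of 39.3%.

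The peptidases changed in both directions. TPP1, CTSA and CTSD were higher in S434A than in WT without H89, CTSH, CTSL and CTSC were lower, and CTSB did not pass. In WT cells H89 raised the same 3 and lowered CTSB, CTSC, CTSH and CTSL. The summed level of the 8 peptidases was 1948 ± 55.7 CPM in S434A cells with H89, 2594 ± 256 CPM in S434A cells without it, 1959 ± 56.8 CPM in WT cells with H89 and 2661 ± 36.9 CPM in WT cells without it (SD, n = 3), and CTSB made up most of it. TPP1 (hg19 chromosome 11, 6633999 to 6640679) is tripeptidyl peptidase 1, which trims tripeptides from the ends of proteins. TPP1 had 79.7, 71.4 and 72.8 CPM in S434A cells with H89, and 102, 97.4 and 66.7 CPM in S434A cells without it. In WT cells TPP1 had 81.2, 80.9 and 72.8 CPM with H89 and 29.2, 27.3 and 31.4 CPM without it. The 9 libraries of the other groups, from 66.7 CPM upwards, were all above the WT libraries without H89, which reached 31.4 CPM. TPP1 rose by 1.60 ± 0.14 (log2) in S434A against WT without H89, adjusted p = 4.7e-06, and by 1.42 ± 0.14 with H89 in WT, adjusted p = 5.35e-06. Its GC content is 50.7%, the lowest among the genes higher in S434A, and trend-removed the values were 1.33 and 1.18. CTSA, cathepsin A or protective protein, also stabilises NEU1 and is named for its change over 2-fold. CTSA had 236, 234 and 241 CPM in S434A cells with H89, and 242, 206 and 159 CPM in S434A cells without it. In WT cells CTSA had 236, 234 and 211 CPM with H89 and 94.9, 102 and 94.96 CPM without it. The S434A libraries without H89 spread between 159 and 242 CPM, above every WT library without H89. CTSA rose by 1.06 ± 0.12, adjusted p = 2.9e-05, in S434A without H89 and by 1.22 ± 0.12, adjusted p = 5.65e-06, with H89 in WT. Trend-removed the S434A value was 0.47. Without the first S434A library it was 0.91, under 2-fold. CTSD, the aspartic protease cathepsin D, gave 0.97 ± 0.14 in S434A without H89, 0.61 ± 0.14 for H89 in WT and -0.42 ± 0.14 for H89 in S434A; the last was -0.24 without the first S434A library, adjusted p = 0.0726. Trend-removed, the S434A value of CTSD was 0.51. For CTSD 53.3% of exon bases, and for CTSA 28.5%, lie on exons of other genes, where counting can lose reads.

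CTSH, the aminopeptidase cathepsin H, gave the smallest p-values of all 47 genes. CTSH had 184, 178 and 179 CPM in S434A cells with H89, and 249.8, 244 and 241 CPM in S434A cells without it. In WT cells CTSH had 165, 164 and 162 CPM with H89 and 346, 354 and 346 CPM without it. The WT libraries without H89 were highest, the S434A libraries without H89 were between, and the H89 groups were lowest, with no overlap between these levels. CTSH fell by 0.51 (log2) in S434A against WT without H89, adjusted p = 3.99e-06, by 1.09 with H89 in WT, adjusted p = 7.64e-09, and by 0.44 with H89 in S434A, adjusted p = 5.5e-05. Trend-removed values were -0.92, -1.34 and -0.27 in that order. CTSL is a cysteine protease, cathepsin L. CTSL had 92.2, 98.6 and 91.9 CPM in S434A cells with H89, and 95.3, 87.1 and 98.4 CPM in S434A cells without it. In WT cells CTSL had 91.0, 90.4 and 89.2 CPM with H89 and 148, 150.2 and 144 CPM without it. WT without H89 stood above all 9 other libraries, which lay between 87.1 and 98.6 CPM. The log2 fold change was -0.65 ± 0.06, adjusted p = 6.07e-06, in S434A without H89, -0.71 ± 0.06, adjusted p = 1.52e-06, for H89 in WT and 0.01 ± 0.06 for H89 in S434A; trend-removed, the value for H89 in WT was -0.10 and no longer past the threshold (adjusted p = 0.101). CTSB (hg19 chromosome 8, 11700033 to 11726957) was the peptidase with the highest level per length. CTSB had 1042, 1103 and 1001 CPM in S434A cells with H89, and 1729, 1595 and 1431 CPM in S434A cells without it. In WT cells CTSB had 1121, 1060.0 and 1062 CPM with H89 and 1708, 1720.0 and 1677 CPM without it. The split here was by H89, with the 6 libraries with H89 between 1001 and 1121 CPM and the 6 without it between 1431 and 1729 CPM. CTSB fell with H89, at -0.60 ± 0.07, adjusted p = 0.000126, in S434A and -0.65 ± 0.07, adjusted p = 8.65e-06, in WT, while S434A against WT without H89 was -0.10 ± 0.07 and did not pass. Without the first S434A library that passed at -0.17; trend-removed it was -0.73, adjusted p = 2.85e-07, and H89 in WT was -1.13. CTSC, the dipeptidyl peptidase that activates granule proteases in leukocytes, fell by 0.44 in S434A without H89 and by 0.56 with H89 in WT. Trend-removed, the first turned to 0.13 and the second was -1.61, and H89 in S434A, at -0.11 before, was -1.77, adjusted p = 0.00444. When the first S434A library was left out as well, the first was -0.58, adjusted p = 4.16e-06, and H89 in S434A was -1.06.

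**Figure D3:**
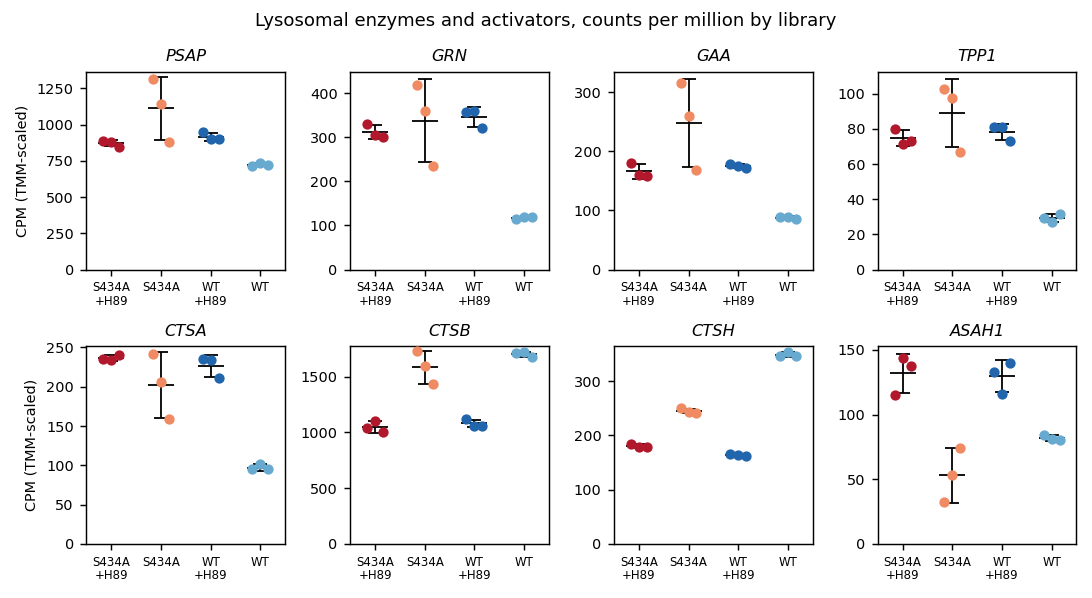
CPM, that is counts scaled to library size (vertical axes, from 0, TMM-scaled) of 8 lysosomal genes in each of the 12 libraries, with points for libraries and black bars for mean ± SD of 3. PSAP, GRN, GAA, TPP1 and CTSA are lowest in WT without H89, CTSB is split by H89, CTSH is highest in WT without H89, and ASAH1 is lowest in S434A without H89.

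Among the glycosidases, lipid enzymes and activators 6 of 9 were higher and 3 lower in S434A than in WT without H89, and H89 in WT raised 5 and lowered 2. Their summed level was 1928 ± 35.8 CPM in S434A cells with H89, 2179 ± 379 CPM in S434A cells without it, 2005 ± 50.3 CPM in WT cells with H89 and 1495 ± 6.87 CPM in WT cells without it (SD, n = 3), of which PSAP was the largest part. PSAP (hg19 chromosome 10, 73576055 to 73611082) had the highest level per length of all 49 genes. PSAP had 887, 881 and 848 CPM in S434A cells with H89, and 1315, 1143 and 879.6 CPM in S434A cells without it. In WT cells PSAP had 947, 900.2 and 898 CPM with H89 and 714, 734 and 719 CPM without it. WT without H89 was lowest, and S434A without H89 was the most spread. The log2 fold change was 0.62 ± 0.11, adjusted p = 0.000626, in S434A against WT without H89, 0.34 ± 0.11, adjusted p = 0.0184, for H89 in WT and -0.35 ± 0.11, adjusted p = 0.023, for H89 in S434A. Trend-removed, PSAP gave 0.68 for H89 in WT and -0.04 for H89 in S434A, the last past no threshold. With RLE factors, H89 in WT gave 0.19 and did not pass (adjusted p = 0.132). GRN (hg19 chromosome 17, 42422614 to 42430474) encodes progranulin, a secreted and lysosomal protein needed for normal lysosome function. GRN had 331, 304 and 301 CPM in S434A cells with H89, and 419, 360.0 and 235 CPM in S434A cells without it. In WT cells GRN had 358, 359 and 321 CPM with H89 and 115, 118 and 118 CPM without it. The groups other than WT without H89 overlapped each other between 235 and 419 CPM, and the 3 WT libraries without H89 reached 118 CPM at most. GRN rose by 1.53 ± 0.17, adjusted p = 1.98e-05, in S434A without H89, and by 1.56 ± 0.17, adjusted p = 9.53e-06, with H89 in WT. Trend-removed the first was 0.98. GAA is the acid glucosidase that degrades glycogen in lysosomes. GAA had 179.7, 159 and 158 CPM in S434A cells with H89, and 315, 260.3 and 168 CPM in S434A cells without it. In WT cells GAA had 178, 176 and 171 CPM with H89 and 89.3, 88.5 and 84.8 CPM without it. Its mean was highest in S434A without H89, which overlapped both H89 groups, and WT without H89 lay below them all. The log2 fold change was 1.5 ± 0.18, adjusted p = 3.37e-05, in S434A against WT without H89, 1.0 ± 0.17, adjusted p = 0.000405, for H89 in WT and -0.58 ± 0.17, adjusted p = 0.0174, for H89 in S434A. At 64.6% GC, the highest of the 49, GAA had trend-removed values of 0.67, 0.42 and -0.29, all 3 still past the threshold. Fitted on the S434A libraries alone, its fall with H89 did not pass (adjusted p = 0.0991).

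HEXA, the alpha subunit of hexosaminidase, which cuts GM2 ganglioside, fell where most of its class rose. HEXA had 31.2, 30.6 and 28.6 CPM in S434A cells with H89, and 43.3, 38.6 and 39.4 CPM in S434A cells without it. In WT cells HEXA had 28.9, 27.7 and 29.5 CPM with H89 and 57.5, 53.8 and 56.8 CPM without it. The highest level was in WT without H89, S434A without H89 followed, and the H89 groups were lowest, without overlap between those levels. HEXA gave -0.47 ± 0.07, adjusted p = 0.000179, in S434A without H89, -0.96 ± 0.07, adjusted p = 5.04e-07, for H89 in WT and -0.43 ± 0.07, adjusted p = 0.0011, for H89 in S434A. Trend-removed the first and second were larger, at -1.04 and -1.70. ASAH1, acid ceramidase, is named for its rise over 2-fold with H89 in S434A. ASAH1 had 115, 143 and 137 CPM in S434A cells with H89, and 32.1, 53.0 and 74.4 CPM in S434A cells without it. In WT cells ASAH1 had 133, 116 and 139.5 CPM with H89 and 84.2, 81.0 and 80.2 CPM without it. Its levels in the H89 groups overlapped, and the spread within S434A without H89 was from 32.1 to 74.4 CPM. The log2 fold change was 1.31 ± 0.23, adjusted p = 0.00166, for H89 in S434A, 0.66 ± 0.23, adjusted p = 0.0249, for H89 in WT and -0.62 ± 0.23, adjusted p = 0.0398, in S434A against WT without H89. Trend-removed these were -0.15, -0.53 and -0.39, so both rises turned round. Only the value for H89 in WT passed, as lower, adjusted p = 0.00983. Without the first S434A library S434A against WT without H89 gave -0.36. With the trend removed and that library left out, the 3 values were 0.10, -0.52 and -0.63. ASAH1 has a GC content of 41.5% and the longest exon set of the 49, at 15378 bases. Of the remaining 4, 3 rose in S434A without H89. SMPD1, acid sphingomyelinase, gave 0.76 ± 0.14 in S434A without H89 and -0.54 ± 0.14 for H89 in S434A. NEU1, the lysosomal sialidase, gave 0.37 ± 0.10 in S434A without H89 and 0.64 ± 0.10 for H89 in WT, and GUSB, beta-glucuronidase, 0.31 ± 0.09 in S434A without H89 and -0.41 ± 0.09 for H89 in S434A. Trend-removed, NEU1 did not pass in S434A without H89, SMPD1 and GUSB did not pass for H89 in S434A, and SMPD1 passed for H89 in WT at 0.46 (adjusted p = 0.000265). LIPA, which frees cholesterol and fatty acids from lipoproteins, fell by 0.64 in S434A without H89 and by 0.47 with H89 in WT, and rose by 0.26 with H89 in S434A, which did not pass without the first S434A library. Trend-removed, these were 0.01, -0.68 and -0.65, and the last passed as lower, adjusted p = 0.00756. The first was -0.27, adjusted p = 0.00013, when the first S434A library was left out as well.

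The genes of the proton pump did not move as 1 unit. ATP6AP1 and ATP6V0D1 were higher in S434A than in WT without H89, ATP6V1B2 and ATP6V1H were lower, and ATP6V1A did not pass. H89 in WT raised ATP6AP1, ATP6V0D1 and ATP6V1A and lowered ATP6V1B2. ATP6AP1 (hg19 chromosome X, 153656991 to 153664862), an accessory subunit needed for pump assembly, had the highest level per length of these 5. ATP6AP1 had 183, 180.2 and 179.8 CPM in S434A cells with H89, and 241, 206 and 138 CPM in S434A cells without it. In WT cells ATP6AP1 had 208, 208 and 177 CPM with H89 and 83.2, 84.7 and 86.0 CPM without it. The WT libraries without H89 were lowest and the other groups overlapped. ATP6AP1 rose by 1.20 ± 0.16, adjusted p = 6.96e-05, in S434A without H89 and by 1.22 ± 0.16, adjusted p = 4.19e-05, with H89 in WT; trend-removed the first was 0.73. ATP6V1A, the catalytic subunit that binds ATP, responded to H89 in both genotypes. ATP6V1A had 68.9, 78.9 and 73.2 CPM in S434A cells with H89, and 18.4, 33.1 and 47.4 CPM in S434A cells without it. In WT cells ATP6V1A had 76.7, 69.0 and 81.3 CPM with H89 and 29.4, 29.8 and 30.5 CPM without it. The 6 libraries with H89 started at 68.9 CPM and the 6 without H89 reached 47.4 CPM. H89 raised it by 1.16 ± 0.25, adjusted p = 0.00431, in S434A and by 1.34 ± 0.25, adjusted p = 0.000729, in WT. Trend-removed these were 0.40, adjusted p = 0.000501, and 1.09, adjusted p = 5.33e-09, and without the first S434A library the value in S434A was 0.87. S434A against WT without H89 was 0.14 ± 0.25 and did not pass, but passed trend-removed at 0.60 and without that library at 0.43, adjusted p = 0.00755. ATP6V1B2, the regulatory partner of that subunit, was highest in WT without H89. ATP6V1B2 had 92.3, 99.5 and 96.7 CPM in S434A cells with H89, and 84.9, 78.8 and 87.8 CPM in S434A cells without it. In WT cells ATP6V1B2 had 88.5, 88.0 and 97.0 CPM with H89 and 131, 129 and 126 CPM without it. It fell by 0.62 in S434A without H89, adjusted p = 1.36e-05, fell by 0.50 with H89 in WT, adjusted p = 3.8e-05, and rose by 0.20 with H89 in S434A, adjusted p = 0.0245. Trend-removed, its rise turned to -0.81, which passed as lower, adjusted p = 0.0171. In the same fit H89 in WT gave -1.17, and its fall in S434A without H89 no longer passed. That fall was -0.72 and passed, adjusted p = 5.43e-11, when the first S434A library was left out as well. ATP6V0D1, a subunit of the membrane part, gave 0.66 ± 0.13 in S434A without H89 and 0.66 ± 0.13 for H89 in WT, and -0.07 and 0.09 trend-removed, neither past the threshold. ATP6V1H, a regulatory subunit of the cytosolic part, gave -0.25 ± 0.07 in S434A without H89 and 0.37 ± 0.07 for H89 in S434A. Both turned round when trend-removed. With the trend removed and the first S434A library left out, they were -0.08 and 0.01, neither past the threshold.

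No gene of the ATG8 family passed the test as higher in S434A than in WT, or with H89 than without it; GABARAPL1 and GABARAPL2 fell in S434A without H89, and these and GABARAP fell with H89 in WT. Its summed level was 240.5 ± 16.2 CPM in S434A cells with H89, 258 ± 12.8 CPM in S434A cells without it, 248 ± 13.8 CPM in WT cells with H89 and 341 ± 8.59 CPM in WT cells without it (SD, n = 3). MAP1LC3B, the LC3 protein that is lipidated onto autophagosomes, did not pass the test in any comparison of the fit of all 12 libraries. MAP1LC3B had 103, 112 and 97.6 CPM in S434A cells with H89, and 96.05, 98.8 and 107 CPM in S434A cells without it. In WT cells MAP1LC3B had 107, 102 and 107 CPM with H89 and 103, 97.5 and 95.6 CPM without it. All 4 groups overlapped between 95.6 and 112 CPM, and its log2 fold changes were 0.03 ± 0.07 in S434A without H89, 0.10 ± 0.07 for H89 in WT and 0.05 ± 0.07 for H89 in S434A. Fitted on only the groups compared, MAP1LC3B passed as higher in S434A without H89, at 0.24, adjusted p = 0.0427. GABARAPL2, of the GABARAP branch, had the highest level per length of the family, 43.7 CPM per kb in WT without H89. GABARAPL2 had 79.1, 84.1 and 79.0 CPM in S434A cells with H89, and 82.3, 86.8 and 91.5 CPM in S434A cells without it. In WT cells GABARAPL2 had 81.5, 75.2 and 85.7 CPM with H89 and 134, 132 and 128 CPM without it. Every WT library without H89 was above all 9 other libraries. GABARAPL2 fell by 0.60 in S434A without H89, adjusted p = 2.12e-05, and by 0.70 with H89 in WT, adjusted p = 3.43e-06. Trend-removed, the first was -0.01 and did not pass, and the second was -0.36. Leaving out the first S434A library as well gave -0.14 for the first, which passed, adjusted p = 0.0326. GABARAPL1 is a close relative of it. GABARAPL1 had 55.8, 60.1 and 47.5 CPM in S434A cells with H89, and 66.5, 63.9 and 71.3 CPM in S434A cells without it. In WT cells GABARAPL1 had 64.0, 53.1 and 62.7 CPM with H89 and 108, 108 and 105 CPM without it. The WT libraries without H89 were again above every other library. GABARAPL1 fell by 0.67 in S434A without H89, adjusted p = 0.000142, by 0.84 with H89 in WT, adjusted p = 1.94e-05, and by 0.30 with H89 in S434A, adjusted p = 0.0238; trend-removed the last was -0.17 and did not pass. GABARAP was counted at 27 to 136 reads per library, and 48.2% of its exon bases lie on exons of other genes. GABARAP had 1.36, 1.62 and 1.13 CPM in S434A cells with H89, and 4.09, 2.33 and 2.29 CPM in S434A cells without it. In WT cells GABARAP had 1.83, 1.39 and 1.27 CPM with H89 and 4.37, 3.99 and 3.92 CPM without it. The H89 groups were below both groups without H89. GABARAP fell with H89, at -1.08 ± 0.25, adjusted p = 0.00547, in S434A and -1.45 ± 0.23, adjusted p = 0.000215, in WT, and the value in S434A was -0.76 without the first S434A library. Trend-removed, the value in WT was -0.84. S434A against WT without H89 gave -0.50 ± 0.22 and did not pass (adjusted p = 0.0721), but passed without that library at -0.83, adjusted p = 0.000797. Near-identical gene copies exist for MAP1LC3B and GABARAPL1, so their counts are uncertain by the share of reads that could fall on the copy.

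**Figure D4:**
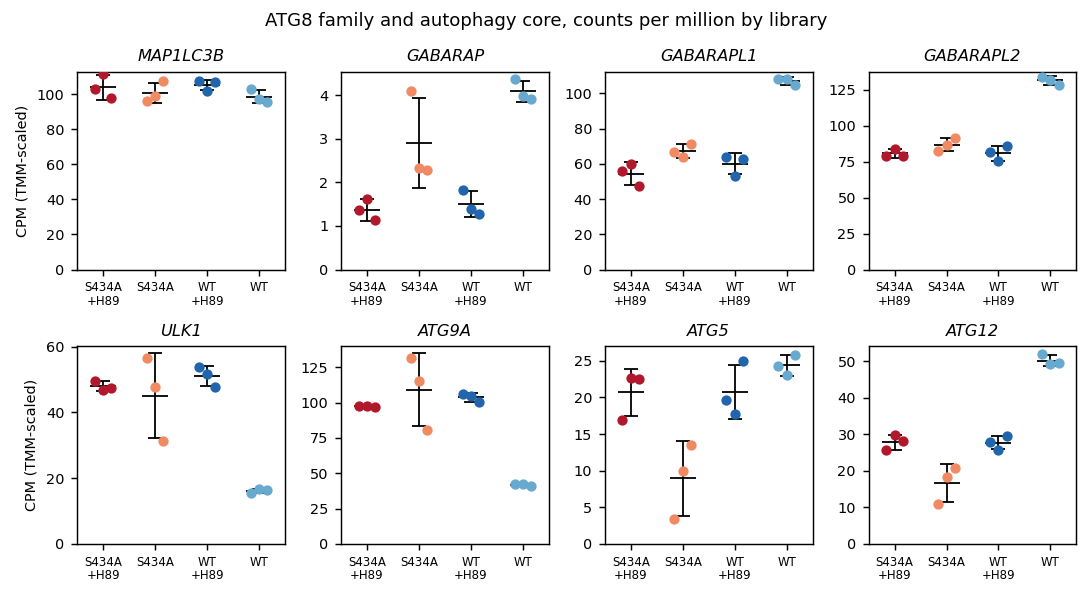
CPM, that is counts scaled to library size (vertical axes, from 0, TMM-scaled) of the 4 ATG8 genes and of ULK1, ATG9A, ATG5 and ATG12 in each of the 12 libraries, with points for libraries and black bars for mean ± SD of 3. MAP1LC3B lies between 95.6 and 112 CPM in all groups, GABARAPL1, GABARAPL2 and ATG12 are highest and ULK1 and ATG9A lowest in WT without H89, and ATG5 is lowest in S434A without H89.

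Neither of the 2 cargo receptors passed the test in S434A against WT without H89. SQSTM1 (p62), which carries ubiquitinated cargo, had the higher level per length of the pair. SQSTM1 had 289, 321 and 303 CPM in S434A cells with H89, and 369, 325 and 274 CPM in S434A cells without it. In WT cells SQSTM1 had 331, 300.1 and 308 CPM with H89 and 307, 303 and 302 CPM without it. All groups overlapped between 274 and 369 CPM, and no comparison passed the test in the fit of all 12 libraries; fitted on the WT libraries alone, H89 gave -0.10, adjusted p = 0.0447. Trend-removed, however, SQSTM1 gave -0.70 in S434A without H89, adjusted p = 6.89e-07, and -0.54 for H89 in WT, adjusted p = 3.82e-06. NBR1, a receptor related to SQSTM1, was higher with H89. NBR1 had 259, 284 and 250.3 CPM in S434A cells with H89, and 116, 173 and 207 CPM in S434A cells without it. In WT cells NBR1 had 269.7, 269.8 and 293 CPM with H89 and 193, 194 and 202 CPM without it. The 6 libraries with H89 were between 250.3 and 293 CPM, and the 6 without it between 116 and 207 CPM. H89 raised NBR1 by 0.68 ± 0.16, adjusted p = 0.00625, in S434A and by 0.50 ± 0.16, adjusted p = 0.0162, in WT; trend-removed these were 0.33, past the threshold, and -0.01, which was not. In S434A against WT without H89 it passed only trend-removed, at -0.42.

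Of the initiation genes ULK1 and ATG13 rose, BECN1 and ATG14 fell, and RB1CC1 did not pass in S434A against WT without H89. ULK1 (hg19 chromosome 12, 132379167 to 132407695) is the kinase that starts autophagy. ULK1 had 49.6, 46.7 and 47.5 CPM in S434A cells with H89, and 56.5, 47.6 and 31.2 CPM in S434A cells without it. In WT cells ULK1 had 53.7, 51.7 and 47.9 CPM with H89 and 15.5, 16.7 and 16.4 CPM without it. The lowest library outside WT without H89 was at 31.2 CPM, above all 3 of that group. ULK1 rose by 1.48 ± 0.17, adjusted p = 2.82e-05, in S434A without H89 and by 1.66 ± 0.17, adjusted p = 6.97e-06, with H89 in WT, the largest rise of the 47 genes in WT. At 64.1% GC its trend-removed values were 0.43 and 0.79, both past the threshold. ATG13, its partner, rose with it. ATG13 had 88.3, 84.4 and 89.7 CPM in S434A cells with H89, and 97.5, 83.9 and 68.3 CPM in S434A cells without it. In WT cells ATG13 had 85.6, 87.7 and 78.4 CPM with H89 and 48.7, 46.8 and 48.3 CPM without it. WT without H89 was again the lowest group without overlap. ATG13 rose by 0.80 ± 0.11, adjusted p = 8.72e-05, in S434A without H89 and by 0.81 ± 0.11, adjusted p = 5.44e-05, with H89 in WT, and trend-removed by 0.39 and 0.47. RB1CC1 (FIP200), the scaffold of the ULK1 complex, had 0.861 CPM in the first S434A library without H89 and 11.5 and 16.2 CPM in the others. It gave -0.41 ± 0.66 in S434A without H89, 0.60 ± 0.65 for H89 in WT and 1.19 ± 0.66 for H89 in S434A. No comparison passed. Without that library H89 in WT passed at 0.60 (adjusted p = 0.0312), but that comparison does not use it, and what changed was the shared spread. Fitted on the WT libraries alone, H89 gave 0.45, adjusted p = 0.201, and the 2 groups overlapped. BECN1 is the regulatory subunit of the lipid kinase complex and had the highest level per length of this class. BECN1 had 71.3, 78.8 and 77.8 CPM in S434A cells with H89, and 63.3, 60.5 and 63.4 CPM in S434A cells without it. In WT cells BECN1 had 71.4, 67.5 and 76.0 CPM with H89 and 81.0, 83.0 and 83.2 CPM without it. S434A without H89 was the lowest group and WT without H89 the highest, and neither overlapped any other group. BECN1 fell by 0.40 in S434A without H89, adjusted p = 0.000283, fell by 0.20 with H89 in WT, adjusted p = 0.0154, and rose by 0.28 with H89 in S434A, adjusted p = 0.00515; trend-removed the last was 0.08 and did not pass, and H89 in WT was -0.42. ATG14, which directs that complex to autophagy, changed most with H89 in S434A. ATG14 had 18.6, 21.7 and 22.3 CPM in S434A cells with H89, and 12.8, 12.6 and 12.8 CPM in S434A cells without it. In WT cells ATG14 had 21.03, 20.1 and 22.2 CPM with H89 and 16.4, 18.02 and 19.6 CPM without it. The S434A libraries without H89 lay within 12.6 to 12.8 CPM, below every other library. ATG14 rose by 0.71 ± 0.10 with H89 in S434A, adjusted p = 0.000456. It fell by 0.50 in S434A against WT without H89, adjusted p = 0.00157. Trend-removed, neither passed, at 0.06 and -0.04. Both passed, at 0.31 and -0.30, when the first S434A library was left out as well.

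In S434A against WT without H89, and with H89 in WT, ATG9A rose while both WIPI genes fell. With H89 in S434A, ATG9A gave -0.16 and did not pass. ATG9A is the lipid scramblase of the vesicles that seed the autophagosome. ATG9A had 97.9, 97.8 and 97.2 CPM in S434A cells with H89, and 132, 115 and 80.7 CPM in S434A cells without it. In WT cells ATG9A had 106, 105 and 100.2 CPM with H89 and 42.5, 42.1 and 41.4 CPM without it. The 9 other libraries started at 80.7 CPM, above the WT libraries without H89, which reached 42.5 CPM. ATG9A rose by 1.38 ± 0.14, adjusted p = 1.09e-05, in S434A without H89 and by 1.30 ± 0.14, adjusted p = 8.54e-06, with H89 in WT; trend-removed the first was 0.88, and 38.8% of its exon bases lie on exons of other genes. WIPI2 binds the lipid that the BECN1 complex makes and recruits ATG16L1. WIPI2 had 98.6, 98.9 and 99.4 CPM in S434A cells with H89, and 139.5, 124 and 119.6 CPM in S434A cells without it. In WT cells WIPI2 had 102, 105 and 97.4 CPM with H89 and 188, 184 and 182 CPM without it. The top group was WT without H89, S434A without H89 was next and the H89 groups were lowest, and these levels did not overlap. WIPI2 fell by 0.53 in S434A without H89, adjusted p = 3.46e-05, by 0.87 with H89 in WT, adjusted p = 4.68e-07, and by 0.37 with H89 in S434A, adjusted p = 0.00128. Trend-removed the first and second were -1.12 and -1.43, both over 2-fold. WIPI1 kept the same order of groups. WIPI1 had 72.5, 73.4 and 63.7 CPM in S434A cells with H89, and 87.3, 78.8 and 76.3 CPM in S434A cells without it. In WT cells WIPI1 had 70.5, 65.4 and 68.0 CPM with H89 and 100.2, 99.8 and 104 CPM without it. It fell by 0.33 in S434A without H89 and by 0.57 with H89 in WT, and by 0.21 with H89 in S434A, where the call was lost without the first S434A library. Trend-removed, WIPI1 gave -0.14, -0.25 and -0.10 in that order, of which only H89 in WT passed. The first was -0.18 and passed, adjusted p = 0.0121, when the first S434A library was left out as well.

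The conjugation genes held the 2 falls over 2-fold in S434A, ATG12 and ATG5, whose products are joined to each other and then act with ATG16L1 to lipidate ATG8 proteins. ATG12 had 25.6, 29.7 and 28.2 CPM in S434A cells with H89, and 10.98, 18.4 and 20.8 CPM in S434A cells without it. In WT cells ATG12 had 27.8, 25.8 and 29.6 CPM with H89 and 51.9, 49.1 and 49.4 CPM without it. WT without H89 was the highest group, the H89 groups lay between 25.6 and 29.7 CPM, and S434A without H89 was the lowest. ATG12 fell by 1.58 in S434A without H89, adjusted p = 3.15e-05, and by 0.85 with H89 in WT, adjusted p = 0.00148, and rose by 0.73 with H89 in S434A, adjusted p = 0.00808. With 38.9% GC, the lowest of the 49, it had trend-removed values of -0.92, -1.63 and -0.76. The rise with H89 in S434A thus turned round and passed as lower, adjusted p = 0.03. For ATG5, named here for its change over 2-fold, there were 16.97, 22.7 and 22.4 CPM in S434A cells with H89, and 3.44, 9.92 and 13.4 CPM in S434A cells without it. In WT cells there were 19.6, 17.8 and 24.9 CPM with H89 and 24.2, 23.0 and 25.8 CPM without it. WT with H89 overlapped WT without H89, S434A with H89 lay below WT without H89, and all 3 S434A libraries without H89 were below every other library. ATG5 fell by 1.45 in S434A against WT without H89, adjusted p = 0.00574, rose by 1.21 with H89 in S434A, adjusted p = 0.0187, and gave -0.23 ± 0.35 for H89 in WT, which did not pass. Fitted on only the groups compared, the fall was -1.24, adjusted p = 0.0652, and the rise 1.21, adjusted p = 0.0997, and neither passed; H89 in WT then passed at -0.38. Trend-removed, the fall, the rise and the value for H89 in WT were -0.84, 0.11 and -0.68, and without the first S434A library -1.06, 0.82 and -0.23. ATG7, the E1-like enzyme of both conjugation systems, split by H89. ATG7 had 12.7, 10.3 and 11.7 CPM in S434A cells with H89, and 20.5, 18.2 and 16.6 CPM in S434A cells without it. In WT cells ATG7 had 10.8, 12.2 and 12.4 CPM with H89 and 21.2, 20.8 and 17.9 CPM without it. The 6 libraries with H89 were between 10.3 and 12.7 CPM, and the 6 without it between 16.6 and 21.2 CPM. ATG7 fell with H89, at -0.67 ± 0.12, adjusted p = 0.00171, in S434A and -0.75 ± 0.12, adjusted p = 0.000224, in WT; trend-removed the second was -1.25, and S434A against WT without H89 was -0.44, adjusted p = 0.0021, against -0.12 before. ATG3, the E2-like enzyme for ATG8 proteins, was lowest in S434A without H89. ATG3 had 21.8, 22.6 and 21.8 CPM in S434A cells with H89, and 13.9, 15.5 and 16.1 CPM in S434A cells without it. In WT cells ATG3 had 22.7, 20.6 and 22.8 CPM with H89 and 21.5, 17.4 and 18.2 CPM without it. It rose by 0.54 ± 0.10 with H89 in S434A, adjusted p = 0.00202. ATG3 fell by 0.33 in S434A against WT without H89, adjusted p = 0.0162. Both turned round when trend-removed, to -0.50 and 0.19, neither past the threshold. With the trend removed and the first S434A library left out, they were -0.15 and -0.17, and neither passed. ATG4B, the protease that primes ATG8 proteins, had the highest level per length of this class. ATG4B had 105, 91.6 and 98.3 CPM in S434A cells with H89, and 126, 107 and 84.7 CPM in S434A cells without it. In WT cells ATG4B had 101, 100.2 and 97.9 CPM with H89 and 76.1, 74.8 and 76.9 CPM without it. The lowest 3 libraries were those of WT without H89, and the other groups overlapped. ATG4B gave 0.48 ± 0.12, adjusted p = 0.00425, in S434A without H89 and 0.39 ± 0.12, adjusted p = 0.0111, for H89 in WT. Trend-removed these turned to -0.21 and -0.07. The first passed as lower, adjusted p = 0.00229, and the second did not pass. ATG16L1 did not pass in any comparison of the fit of all 12 libraries, with 36.2 to 48.2 CPM over the 12 libraries. Its log2 fold changes were 0.16 ± 0.09 in S434A without H89, 0.06 ± 0.09 for H89 in WT and -0.085 ± 0.09 for H89 in S434A.

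The effect of H89 differed between the genotypes for 33 of the 47 genes by the interaction term. It was higher in S434A than in WT for 14 (29.8% beside 24.0% of all genes) and lower for 19 (40.4% beside 24.0%). Over 2-fold it was higher for ATG12 and ATG5 (4.26% beside 11.7% of all genes) and lower for GRN, TPP1, GAA, ULK1, ATG9A, ATP6AP1, TFE3 and CTSD, 8 of 47, beside 12.4% of all genes. For TPP1 the log2 effect of H89 was -0.25 ± 0.14 in S434A and 1.42 ± 0.14 in WT, a difference of -1.67 ± 0.20, adjusted p = 7.24e-05, and -1.40 trend-removed. For GRN it was -0.11 ± 0.16 in S434A and 1.56 ± 0.17 in WT, a difference of -1.68 ± 0.23, adjusted p = 0.00019, and -1.11 trend-removed. For ATG12 it was 0.73 ± 0.18 in S434A and -0.85 ± 0.18 in WT, a difference of 1.59 ± 0.26, adjusted p = 0.000506. Trend-removed, that of ATG12 was 0.86, adjusted p = 0.0529, and the call was lost, while that of ATG5 was 0.79 and passed. With the first S434A library also left out, that of ATG12 was 1.23 and passed, adjusted p = 1.89e-09. Over 2-fold higher was 1 gene in 8 of the 12 fits that leave out a library. This term uses all 12 libraries and so shares libraries with every comparison above. It equals S434A against WT with H89 minus S434A against WT without H89. The first was -0.07 for TPP1 and -0.15 for GRN, and the second 1.60 and 1.53. The term therefore largely restates S434A against WT without H89 with the sign turned, and is not separate evidence. Its 19 lower genes are the 19 that were higher there, and its 14 higher genes are among the 17 lower there. Trend-removed, 21 of the 33 kept direction and threshold, 6 lost the call and 6 turned round, and the count over 2-fold lower was 2.

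Other genes of the pathway, from lists chosen with earlier results of these data known, were counted in the same fit. The shares of all genes tested, to be read beside each count below, were 29.0% up and 29.3% down in the S434A against WT comparison, 38.8% and 30.9% for H89 in WT, and 29.3% and 22.7% for H89 in S434A. Of 37 other lysosomal hydrolases tested, 20 were higher and 9 lower in S434A than in WT without H89, and the median log2 fold change was 0.55, beside -0.04 over all genes; trend-removed it was 0.28. MAN2B2, a mannosidase, gave 1.46 and ARSB, arylsulfatase B, 0.72, while AGA, aspartylglucosaminidase, gave -0.84, CTSS, cathepsin S, -1.55 and DPP7, a dipeptidyl peptidase, -1.21. Trend-removed these 5 were 0.59 for MAN2B2, 0.44 for ARSB, -0.11 for AGA, -0.75 for CTSS and -1.79 for DPP7, of which AGA did not pass. H89 in WT raised 18 and lowered 12 of the 37, with ARSB at 0.94 and AGA at -1.45, and 0.43 and -1.0 trend-removed. In S434A cells H89 raised 3 and lowered 11, or 6 and 13 trend-removed. Of 13 other V-ATPase subunits tested, S434A cells without H89 had 2 higher and 6 lower, and H89 in WT raised 4 and lowered 7. ATP6V0A1, a large membrane subunit, gave 1.27 and 1.44 in those comparisons, and ATP6V1F, a small subunit of the rotor part, -1.41 and -2.09. Trend-removed these were 0.74 and 0.79 for ATP6V0A1 and -1.01 and -1.22 for ATP6V1F. H89 in S434A raised 6 of the 13, among them ATP6V1C1 at 1.64, and lowered 2. Trend-removed it raised 3 and lowered 4, with ATP6V1C1 at 0.51.

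Of 27 other lysosomal membrane and sorting genes tested, S434A cells without H89 had 11 higher and 10 lower, H89 in WT raised 12 and lowered 9, and H89 in S434A raised 10 and lowered 4. Trend-removed, H89 in S434A raised 2 and lowered 9 of the 27, and the median log2 fold change was -0.13 in place of 0.10; H89 in WT raised 10 and lowered 12. IGF2R, the receptor that sorts enzymes tagged with mannose 6-phosphate, gave 1.74 in S434A without H89 and 1.85 for H89 in WT, whereas M6PR, its smaller relative, gave -0.71 in S434A without H89. NPC1, which exports cholesterol from lysosomes, gave 1.20 and 1.54, and CD63, a tetraspanin, -0.74 and -1.28 in those 2 comparisons. Trend-removed, in S434A without H89 and for H89 in WT, IGF2R gave 1.04 and 0.89, NPC1 0.84 and 0.97 and CD63 -0.56 and -0.73, and M6PR gave -0.45 in S434A without H89. Of 46 other autophagy genes tested, S434A cells without H89 had 17 higher and 16 lower, H89 in WT raised 22 and lowered 11, and H89 in S434A raised 18 and lowered 4. FYCO1, an adaptor for autophagosome transport, gave 1.03 in S434A without H89 and 1.23 for H89 in WT, and VAMP8, a SNARE that takes part in fusion with lysosomes, -1.35 and -1.83. EPG5, a tether of fusion, rose by 2.32 with H89 in WT and by 1.29 with H89 in S434A. Trend-removed, FYCO1 gave 0.51 and 0.71 and VAMP8 -0.93 and -0.96 in S434A without H89 and for H89 in WT, and EPG5 1.42 for H89 in WT and 0.78 for H89 in S434A. Of 29 genes of MTORC1 and lysosomal nutrient sensing tested, S434A cells without H89 had 12 higher and 10 lower, H89 in WT raised 13 and lowered 10, and H89 in S434A raised 10 and lowered 8. MTOR, the kinase, gave 1.49 and 1.52 in the first 2 comparisons, and LAMTOR5, LAMTOR4 and LAMTOR2, small subunits of the anchor that holds MTORC1 at the lysosome, gave -1.55, -1.06 and -0.84 in S434A without H89 and -1.89, -1.42 and -1.23 for H89 in WT. Trend-removed, MTOR gave 0.97 and 0.79, and LAMTOR5, LAMTOR4 and LAMTOR2 gave -1.17, -0.95 and -0.54 in S434A without H89 and -1.44, -0.90 and -0.45 for H89 in WT, all past the threshold. With H89, S434A and WT cells differed in none of the genes of these 5 lists at an adjusted p under 0.05 in edgeR.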

How the data were processed

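Total RNA of HepG2 cells was sequenced in 12 libraries, extracted with a column kit per the labels' protocols. The submitters' processing notes name Bowtie 0.12.2 and the build hg19, without their role. The authors deposited raw read counts per gene, made with featureCounts 2.0.1 over exons of an hg19 annotation in paired mode, per the file headers, which state no option for strand, multi-mapping reads or overlapping genes; reads of overlapping genes, antisense partners and near-identical copies may therefore be lost or shared. Symbols were matched to the Ensembl gene IDs of the counts table through a table of gene names, and genes keep the hg19 coordinates of that counts table. Counts enter the tests as deposited.

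Genes passed edgeR's filterByExpr at a minimum count of 10. Libraries were scaled by TMM, and edgeR 4.0.16 (R 4.3.3) fitted a robust quasi-likelihood model to all 12 libraries with a term per group, which share 1 estimate of spread. Adjusted p-values are Benjamini-Hochberg values over all genes tested in a comparison, and SE is the size of the log2 fold change divided by the square root of F. The script was checked on simulated counts. The alternatives tried were limma-voom (limma 3.58.1) with and without a weight per group, DESeq2 1.42.0, upper-quartile or RLE scaling, other filters, fits of only the groups compared, a replicate block, each library left out, and an offset that takes the GC and length trend out of each library (splines with 5 degrees of freedom; GC content of GENCODE 29 transcripts of GRCh38, matched by ID for 14280 of 14435 genes).

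Replicates are biological replicates per the labels, which do not say whether they are separate cultures or days. Every gene is given with its direction; per class, library values are given for up to 3 genes with the smallest p-value over the 2-group comparisons, the ATG8 family, TFEB, TFE3 and the gene highest per length, and for ATG5, CTSA and ASAH1, added after their values were seen. The genes, lists and tests were chosen with earlier results of these data known. One gene of these lists is not reported here by name.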

Additional observations from a re-analysis of the deposited data

Results flagged for a closer look

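The 33 genes listed here stood out because the effect of H89 differed between S434A and WT cells in edgeR's interaction test at an adjusted p under 0.05; 24.0% of all genes tested did so in each direction. Values are log2 differences, the effect in S434A minus the effect in WT. The effect was higher in S434A for ATG12 1.59, ATG5 1.44, LIPA 0.73, CTSL 0.72, ATP6V1B2 0.70, CTSH 0.65, GABARAPL2 0.60, HEXA 0.54, GABARAPL1 0.53, WIPI2 0.50, BECN1 0.49, ATG14 0.48, CTSC 0.45 and WIPI1 0.36. It was lower in S434A for GRN -1.68, TPP1 -1.67, GAA -1.58, ULK1 -1.57, ATG9A -1.46, ATP6AP1 -1.33, TFE3 -1.13, CTSD -1.03, LAMP1 -1.0, CTSA -1.0, MCOLN1 -0.78, SMPD1 -0.77, ATG13 -0.74, PSAP -0.69, TFEB -0.65, ATP6V0D1 -0.64, ATG4B -0.50, GUSB -0.41 and NEU1 -0.40. Spearman's rho across all genes between this difference and GC content was -0.45. These differences largely restate S434A against WT without H89 with the sign turned, because the 2 genotypes differed little with H89.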

How the results depend on the processing

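Of the 130 calls of single genes in the 4 comparisons that gave calls, none changed direction under RLE or upper-quartile factors, DESeq2, either limma-voom fit, either filter or the replicate block. Nor did any in fits of only the groups compared, run for all of these calls but the 33 of the difference of H89 effects, or when a library of the comparison itself was left out. The reversals all came with the GC and length trend removed. Some calls were lost in other fits without turning round. For H89 in WT 5 of the 36 calls were lost with RLE factors and 5 with DESeq2. For H89 in S434A 7 of the 25 were lost with the weighted limma-voom. With the trend on GC content and length removed, the log2 value turned round for S434A against WT without H89 in ATG4B -0.21, ATG3 0.19, TFEB -0.22, ATP6V1H 0.17, LIPA 0.01, CTSC 0.13 and ATP6V0D1 -0.07. For H89 in WT it did so in ATG4B -0.07, TFEB -0.12, ASAH1 -0.53, NBR1 -0.01 and LAMP2 -0.37. For H89 in S434A it did so in ATG3 -0.50, ATG12 -0.76, ASAH1 -0.15, ATP6V1B2 -0.81, ATP6V1H -0.23, LIPA -0.65 and LAMP2 -0.98. For the difference of H89 effects it did so in ATG4B 0.22, TFEB 0.14, CTSC -0.16, ATG14 -0.02, ATP6V0D1 0.13 and GABARAPL2 -0.05. Some of these passed in the new direction: ATG4B and TFEB in S434A against WT without H89, and ASAH1 for H89 in WT. ATG12, ATP6V1B2, LIPA and LAMP2 did so for H89 in S434A, and ATG4B for the difference. With the trend removed and the first S434A library left out, the log2 value turned round for S434A against WT without H89 in ATG4B -0.22, TFEB -0.24 and ATP6V0D1 -0.12. For H89 in WT it did so in ATG4B -0.07, TFEB -0.13, ASAH1 -0.52, NBR1 -0.02 and LAMP2 -0.36. For H89 in S434A it did so in ATG3 -0.15, ATG12 -0.40, ATP6V1B2 -0.40, PSAP 0.02, LIPA -0.37 and LAMP2 -0.35. For the difference of H89 effects it did so in ATG4B 0.24, TFEB 0.16 and ATP6V0D1 0.19. With the trend removed and a replicate block, it turned round for S434A against WT without H89 in ATG4B -0.21, ATG3 0.20, TFEB -0.22, ATP6V1H 0.16 and ATP6V0D1 -0.07. For H89 in WT it did so in ATG4B -0.07, TFEB -0.12, ASAH1 -0.53, NBR1 -0.01 and LAMP2 -0.38. For H89 in S434A it did so in ATG3 -0.49, ATG12 -0.76, ASAH1 -0.13, ATP6V1B2 -0.77, ATP6V1H -0.22, LIPA -0.62 and LAMP2 -0.89. For the difference of H89 effects it did so in ATG4B 0.22, TFEB 0.14, CTSC -0.03, ATG14 -0.02, ATP6V0D1 0.13 and GABARAPL2 -0.04. The cause was not tested.

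For S434A against WT without H89, only the groups compared gave 10 lower, 12 over 2-fold higher and 1 over 2-fold lower, against 17, 7 and 2. Over 2-fold higher was 1 with the trend removed, 1 with a block added and 2 without the first S434A library. For H89 in WT, over 2-fold lower was 5 with RLE factors, 5 with DESeq2, 5 with only the groups compared, 6 with no filter and 8 in each fit with the trend removed, against 2. For H89 in S434A, higher was 7 with the weighted limma-voom, 7 with no filter and 5 with only the groups compared, against 12, and lower was 6 with only the groups compared, against 13. Over 2-fold higher was 0 in each fit with the trend removed and 1 with only the groups compared, against 3. With H89, S434A against WT had 1 lower with the trend removed and the first S434A library left out. For the difference of H89 effects, over 2-fold higher was 1 with no filter and 4 with the trend removed and that library left out, against 2. Over 2-fold lower was 2 with the trend removed, 2 with a block added and 3 with that library left out, against 8.

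Leaving out 1 library at a time gave, for S434A against WT without H89, 18 to 21 higher, 15 to 19 lower, 7 to 11 over 2-fold higher (11 without S434A replicate 3) and 2 to 2 over 2-fold lower. For H89 in WT it gave 14 to 20 higher (21 with all), 15 to 15 lower, 7 to 9 over 2-fold higher and 2 to 6 over 2-fold lower (6, 4 and 5 without WT with H89 replicates 1, 2 and 3). For H89 in S434A it gave 5 to 13 higher (5 without S434A with H89 replicate 2), 11 to 22 lower (22 without S434A replicate 3), 1 to 3 over 2-fold higher (1 without S434A replicate 1 or S434A with H89 replicate 2) and 0 to 1 over 2-fold lower (0 without S434A replicate 1). For S434A against WT with H89 it gave 0 to 0. For the difference of H89 effects it gave 12 to 18 higher, 14 to 20 lower, 1 to 2 over 2-fold higher and 7 to 11 over 2-fold lower.

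Replicate numbers did not pair the samples, with correlations of -0.153 to 0.309 between deviations of same-numbered libraries. With the replicate number as a block, S434A against WT without H89 had 19 higher and 19 lower, and all 130 calls were kept. Depth limits CLN3, CTSZ, ULK2 and GABARAP most, with 2 to 15, 4 to 11, 0 to 5 and 27 to 136 counts per library.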
